A study of Homo sapiens with 10 samples.

Results

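This account covers the zinc finger genes of proximal chromosome 19q: the protein-coding genes on chromosome 19 whose symbol starts with ZNF, ZFP, ZSCAN or ZKSCAN followed by a digit and whose GRCh38 start lies from 26200000 to below 46000000. The rule uses names and positions and no measured value. It found 66 genes among 20037 protein-coding genes of the nuclear chromosomes. On the far side of the lower border, beyond the centromere, the nearest zinc finger gene was ZNF254 (11.2% covered), and the members at the borders were ZNF536 (0.51% covered) and ZNF296 (0% covered). The nearest gene beyond the upper border was ZNF541, also at 0%.

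The study used BJ cells, a human foreskin fibroblast line, and CUT&RUN, in which an antibody guides a nuclease fusion to its target in permeabilised cells and the released DNA is sequenced. Fibroblasts received 5 nM of a non-targeting siRNA or of an siRNA against ERH in 2 cycles set 3 days apart. H3K9me3, the trimethylation of lysine 9 of histone H3, was profiled in 3 samples of each siRNA, and SOX2 in 2 samples of each siRNA that were collected 48 h after Sendai virus delivery of OCT4, SOX2, KLF4 and c-MYC. All values below come from 1 merged list of H3K9me3 regions that the labels attach to the 3 ERH knockdown samples, none of which received the virus. The other 3 groups were not analysed here, so no value compares knockdown with control. The ERH siRNA is 1 catalogue product in 1 cell line, and how much ERH remained was not measured here. The list has no replicates, no counts and no sequencing depth, so no value has a replicate error, and members, which are neighbours in the genome, are not replicates. Intervals given for shares are Wilson 95% intervals and cover counting error only.

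Most genes of these clusters encode KRAB zinc finger proteins, which bind DNA through arrays of C2H2 fingers, many of them at transposable elements. Their KRAB box recruits TRIM28, which brings the methyltransferase SETDB1, and the H3K9me3 it places is bound by HP1 proteins. Clusters of KRAB zinc finger genes are themselves known to carry H3K9me3, most of all over the 3' exons that encode the finger arrays. ERH is a small conserved nuclear protein with known roles in RNA processing and heterochromatin.

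The letters just before the start sites of 5 members are shown first because the results turn on where in a gene the regions lie. Each is the 250 bases before the outermost start site from the RefSeq promoter table (GRCh38.p14), 5' to 3' on the gene's strand, with CG dinucleotides in capitals. ZNF404 is the member whose start lay inside a region. ZNF283, ZNF180 and ZNF570 are members with over 50% of the gene body covered and no region at the start, and ZNF224 had no region at all. The 5 were picked after their values were seen.
ZNF404: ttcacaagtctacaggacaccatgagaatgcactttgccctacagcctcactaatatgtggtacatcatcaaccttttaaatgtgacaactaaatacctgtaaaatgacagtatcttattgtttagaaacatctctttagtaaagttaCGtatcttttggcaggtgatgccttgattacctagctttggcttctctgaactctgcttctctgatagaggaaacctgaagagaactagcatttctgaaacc
ZNF283: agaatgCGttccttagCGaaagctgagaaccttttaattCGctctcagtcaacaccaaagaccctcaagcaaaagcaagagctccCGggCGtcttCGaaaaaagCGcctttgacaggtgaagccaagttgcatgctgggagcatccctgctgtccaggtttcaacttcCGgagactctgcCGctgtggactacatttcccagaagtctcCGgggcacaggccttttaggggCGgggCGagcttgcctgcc
ZNF180: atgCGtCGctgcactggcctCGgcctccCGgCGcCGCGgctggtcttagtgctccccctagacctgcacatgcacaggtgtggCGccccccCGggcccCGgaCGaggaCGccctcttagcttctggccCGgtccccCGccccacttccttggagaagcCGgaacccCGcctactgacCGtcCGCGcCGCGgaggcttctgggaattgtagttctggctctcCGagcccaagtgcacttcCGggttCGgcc
ZNF570: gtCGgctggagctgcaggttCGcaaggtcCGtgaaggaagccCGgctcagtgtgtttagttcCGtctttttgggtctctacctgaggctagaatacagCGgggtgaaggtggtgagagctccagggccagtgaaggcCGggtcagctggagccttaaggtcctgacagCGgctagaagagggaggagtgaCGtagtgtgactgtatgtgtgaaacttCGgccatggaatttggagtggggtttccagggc
ZNF224: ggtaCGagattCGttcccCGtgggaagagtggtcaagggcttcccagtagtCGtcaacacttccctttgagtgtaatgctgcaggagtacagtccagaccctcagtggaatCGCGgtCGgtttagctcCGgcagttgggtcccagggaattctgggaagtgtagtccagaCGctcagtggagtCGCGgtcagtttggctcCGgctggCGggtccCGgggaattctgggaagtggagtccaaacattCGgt
The ZNF404 stretch (chr19:43883965-43884214, minus strand) held 1 CG and was covered over all 250 bases. The ZNF283 stretch (chr19:43827071-43827320, plus strand) held 12, and the nearest region was 9.82 kb away. The ZNF180 stretch (chr19:44500523-44500772, minus strand) held 24, with a region 12.5 kb away. The ZNF570 stretch (chr19:37467522-37467771, plus strand) held 10, with a region 9.56 kb away, and the ZNF224 stretch (chr19:44094111-44094360, plus strand) held 15, with a region 26.8 kb away.

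H3K9me3 regions were present in most of the 66 genes and seldom in the other genes of the same stretch. Of the members, 43 shared at least 1 bp with a region, or 65.2% (interval 53.1 to 75.5%), where 10.5% of all protein-coding genes did. At a covered share of at least 10% of the gene body the count was 42, or 63.6%, against 2.40% of all protein-coding genes. At 50% it was 7, or 10.6%, against 0.424%. The members just below 50% were ZNF382 (44.9% covered) and ZNF792 (47.2%), and those just above it ZNF222 (51.3%) and ZNF180 (52.2%). Covered shares over all 66 had a median of 15.2%, and those of the 43 with a region had a median of 27.5% and quartiles of 15.3 and 40.5%. Of these 43 genes, 32 held 1 region, 10 held 2 and 1, ZNF568, held 3. Mouse Zfp568 is a known repressor of a placental Igf2 transcript. The 3 regions of human ZNF568 covered 13.3% of its gene body.

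Between 26200000 and 46000000, 7 of 302 other protein-coding genes had a region, or 2.32% (interval 1.13 to 4.71%). These were TSHZ3, CEP89, SCGB2B2, FXYD5, LOC124904708, RYR1 and CEACAM21, with 1.40 to 50.9% of the gene covered. The highest share, 50.9%, belonged to LOC124904708, a gene model that shares 10.5 kb with ZNF793 and whose 2 regions are the 2 counted in ZNF793. FXYD5 followed with 20.7%. The median gene length was 13794.5 bp for the 302 genes, 91631 bp for the 7 and 24976.5 bp for the members. The part of gene length in these shares was not tested. Among families that sit between the zinc finger clusters, 0 of 6 CYP2 genes, which encode drug-metabolising cytochromes, overlapped a region. The counts were 0 of 10 PSG genes, which encode pregnancy-specific glycoproteins, 0 of 6 LGALS genes for galectins, and 1 of 11 CEACAM adhesion genes (CEACAM21, 8.74% covered). With 6 to 11 genes each, these families are too small to be set apart from the 10.5% of all protein-coding genes. The spans of the 3 clusters with at least 5 zinc finger genes overlapped 12 other protein-coding genes, and of these LOC124904708 had covered bases within the span. SCGB2B2 reaches 1.18 kb into a span, and its covered bases lie outside it.

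Zinc finger genes elsewhere on the chromosome gave different shares. On 19p, 76 of 84 had a region, or 90.5% (interval 82.3 to 95.1%), and on distal 19q 64 of 112 had one, or 57.1% (interval 47.9 to 65.9%). The interval of the proximal 19q genes overlaps the distal 19q interval and ends below the 19p interval. No test was made, since genes of a cluster are not independent. Median gene length was 24976.5 bp on proximal 19q, 28545 bp on 19p and 19525.5 bp on distal 19q, and its part in these shares was not tested. Among genes with a region, the median covered share was 27.5% on proximal 19q, 24.0% on 19p and 27.8% on distal 19q, so these 3 medians lay within the quartiles of each group.

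The 66 genes fell into 9 physical groups when a gap of over 500 kb started a new group. The first of 2 large clusters ran from ZNF565 to ZNF573 over 1.60 Mb and held 29 members, of which 26 had a region. The other ran from ZNF575 to ZNF180 over 0.97 Mb and held 23 members, of which 11 had one. The median covered share was 23.7% in the ZNF565 cluster and 0% in the ZNF575 cluster. Even so the ZNF575 cluster had 4 of the 7 members above 50%. A smaller cluster from ZNF302 to ZNF792 held 5 members, 3 of them with a region.

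**Figure D1:**
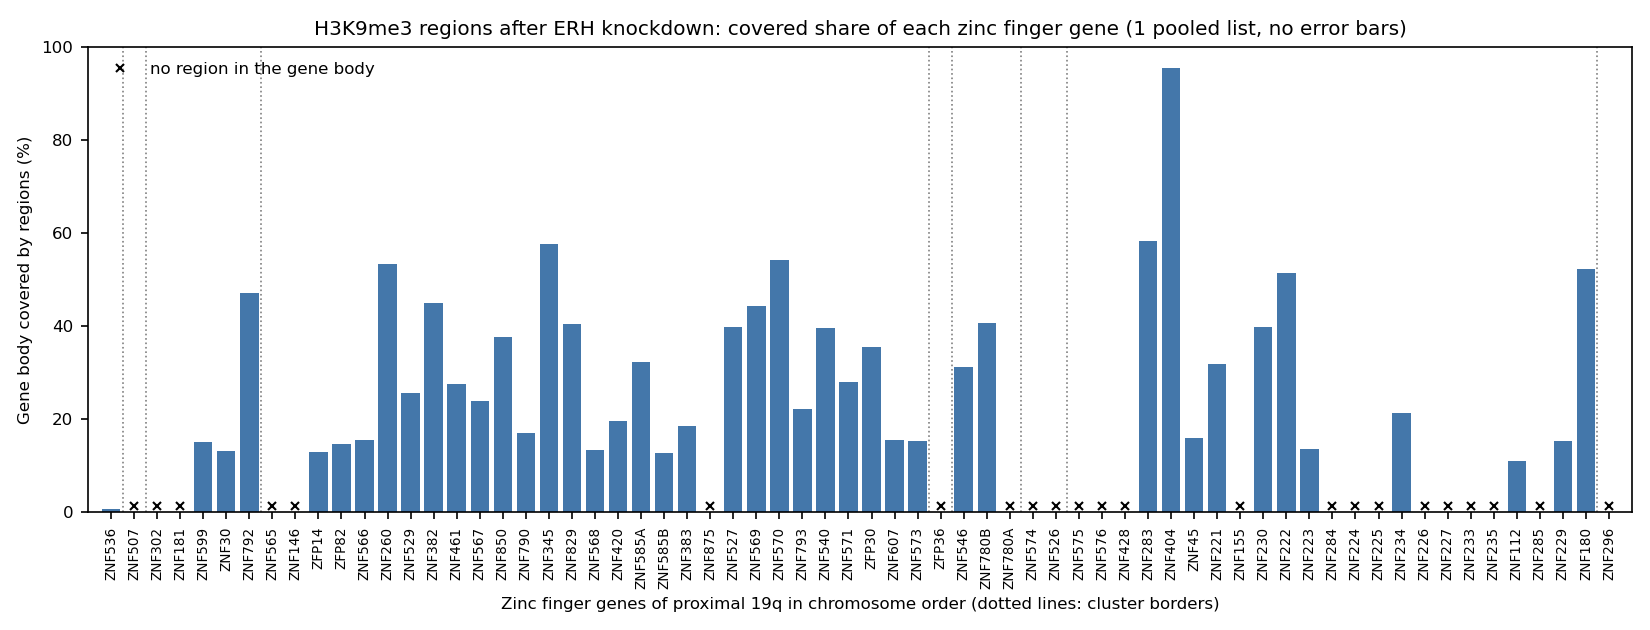
Share of the gene body (%) inside H3K9me3 regions for each of the 66 genes in chromosome order, from the pooled list without error bars; crosses mark genes with no region and dotted lines the borders of the 9 groups. ZNF404 reached 95.4%, while the row of genes from ZNF284 to ZNF285 held only ZNF234 and ZNF112 with a region.

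In the ZNF565 cluster the most covered genes were ZNF345 (57.7%), ZNF570 (54.2%) and ZNF260 (53.4%). ZNF345 (chr19:36850365-36893218) held 2 regions, at 36866900 to 36869538 and 36871130 to 36899501. ZNF570 (chr19:37467772-37488652) held 1, at 37477336 to 37494161. ZNF260, known as a zinc finger protein without a KRAB box, lies at chr19:36510687-36528271 and held 1 region at 36510041 to 36520076. The longer region of ZNF345 and the regions of ZNF570 and ZNF260 reached past the gene's 3' end. The 3 members of the cluster without a region were ZNF565, ZNF146 and ZNF875. ZNF565 and ZNF146 overlap each other at the cluster's edge and lay 91.9 and 99.1 kb from the nearest region, and ZNF875 lay 19.9 kb from one.

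In the ZNF575 cluster the most covered genes were ZNF404 (95.4%), ZNF283 (58.4%) and ZNF180 (52.2%). ZNF404 (chr19:43872365-43883964) was covered by regions at 43853070 to 43877682 and 43878218 to 43885353. ZNF283 (chr19:43827321-43852017) held a region at 43837136 to 43851549, so that this pair of neighbours was covered almost without a break from the body of ZNF283 to the start of ZNF404. ZNF180 (chr19:44474431-44500522) held a region at 44461648 to 44488063. The 12 members of the cluster without a region were ZNF575, ZNF576, ZNF428, ZNF155, ZNF284, ZNF224, ZNF225, ZNF226, ZNF227, ZNF233, ZNF235 and ZNF285. ZNF224 is a KRAB protein known as a repressor of the aldolase A gene. ZNF284, ZNF224 and ZNF225 follow each other, as do ZNF226, ZNF227, ZNF233 and ZNF235, and only ZNF234 between these runs held a region (21.3% covered).

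In the cluster from ZNF302 to ZNF792, ZNF792 was covered over 47.2%, ZNF599 over 14.96% and ZNF30 over 13.0%, and ZNF302 and ZNF181 had no region. ZNF181 ended 1.66 kb from one. In a group of 3, ZNF780B was covered over 40.7% and ZNF546 over 31.2%, while ZNF780A, which lies 23.5 kb from the nearest region, had 0%. The pair ZNF574 and ZNF526 and the lone genes ZNF507, ZFP36 and ZNF296 had no region, at distances from 121 kb for ZFP36 to 457 kb for ZNF526. The lone gene ZNF536, known as a repressor of neuronal differentiation and with 488 kb the longest member, held 1 region over 0.51% of its length. ZFP36 is a member by its symbol, but its protein, tristetraprolin, is a CCCH finger protein that binds RNA.

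Members known to lack a KRAB box were set beside the rest in a comparison made after the values were seen, from a hand-written list and without protein sequences. The list held ZNF536, ZNF507, ZNF146, ZNF260, ZFP36, ZNF574, ZNF526, ZNF575, ZNF576, ZNF428 and ZNF296. Of these 11 genes, 2 had a region, or 18.2% (interval 5.14 to 47.7%), and they were ZNF536 and ZNF260. Of the other 55 members 41 had one, or 74.5% (interval 61.7 to 84.2%). The list was not checked against proteins, so the 55 may include genes without a KRAB box. The intervals do not cover errors in the list. The listed genes were shorter, with a median length of 12.4 kb against 28.0 kb. Most of them also lie alone or at a cluster's edge. The part of length and position in this difference was not tested. Over the 66 genes, Spearman's rho between gene length and covered share was 0.20, given as a description only.

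The regions lay over many ends of the genes and over few of their starts. For 59 of the 66 members the RefSeq table gives start sites and strand. The last base of the gene body lay in a region in 25 of the 59, or 42.4% (interval 30.6 to 55.1%), where 1.32% of all protein-coding genes with a start site had this. A region touched the last 2 kb in 32 of the 59, or 54.2%, against 1.73% of all. The window from 250 bases before to 50 after a start site touched a region in 1 of the 59, or 1.69% (interval 0.30 to 9.0%), against 0.164% of all. That gene was ZNF404. A start window need not lie at the first base of the gene body. The body of ZNF420 begins at 37007902, with a region at 37008144 to 37012175, but its windows begin at 37077972 and 37078183. Of the 38 members with both a strand and a region, 13 had no region at the last base. ZNF30, ZFP14, ZNF571, ZNF221, ZNF155, ZNF223 and ZNF233 were not matched and entered neither count.

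Each gene body was split into 10 equal parts from its first to its last base, whatever the place of its start windows. The mean covered share over the 59 members was 3.47% in part 1, 8.32% in part 5, 26.5% in part 7, 52.2% in part 9 and 49.6% in part 10. Zinc finger genes of 19p went from 1.37% in part 1 to 60.8% in part 10, and those of distal 19q from 2.02% to 28.1% with the highest value, 33.1%, in part 8. The 264 other genes of the same stretch with a strand stayed between 0% and 0.92% in every part. A higher share toward the end was thus present in all 3 sets of zinc finger genes. Over all 15438 protein-coding genes of at least 1 kb with a strand, the mean went from 0.34% in part 1 to 1.61% in part 9 and 1.504% in part 10. That set includes the zinc finger genes, and its course without them was not computed. Of the 209 protein-coding genes whose last base lay in a region, 25 were members. Another 39 were zinc finger genes of 19p, 24 of distal 19q and 54 of other chromosomes.

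Just past the gene end, at 0.5 kb, 43.8% of 19p zinc finger genes and 35.6% of proximal 19q genes were in a region. From 1 kb to 20 kb past the end the shares were higher for the proximal 19q genes than for 19p or distal 19q. At 2 kb beyond the end, 40.7% of the 59 members were in a region, against 28.8% of 73 genes on 19p and 14.6% of 96 on distal 19q. At 10 kb beyond the end the shares were 35.6%, 9.59% and 14.6%, and at 20 kb they were 25.4%, 8.22% and 13.5%. Over all protein-coding genes with a start site the shares at these distances were 1.27%, 1.77% and 1.53%. On the other side, 2 kb before the end, the proximal 19q and 19p shares were closer, at 54.2% and 64.4%. Genes differ in spacing between these sets, neighbouring genes share bases beyond their ends, and the difference has no test.

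**Figure D2:**
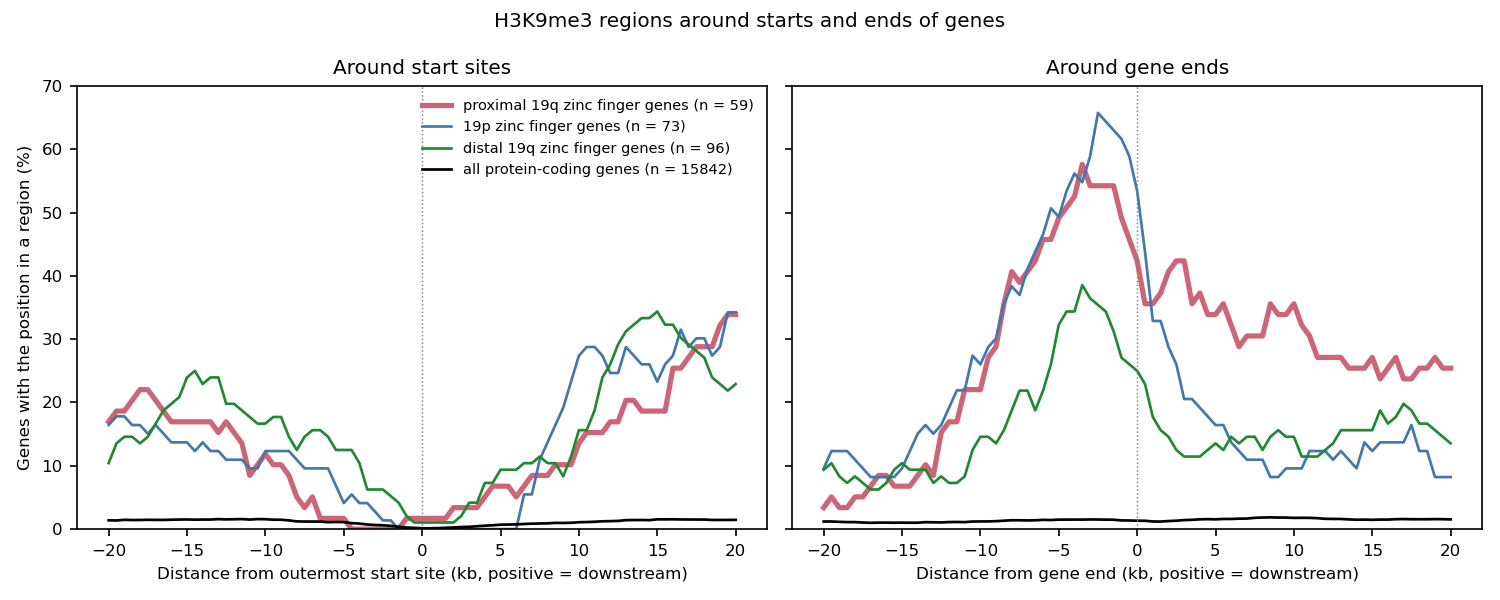
Share of genes (%) whose position lies in an H3K9me3 region, by distance (kb, positive is downstream) from the outermost start site and from the gene end. Curves fall to near 0 at the start sites. Those of zinc finger genes peak just before the gene ends, at 57.6% for proximal 19q at 3.5 kb before the end. The curve of all protein-coding genes has its highest value around the gene end, 1.85%, at 8.5 kb beyond it. From 1 kb beyond the end the proximal 19q curve lies above the others.

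The arrangement of neighbouring members followed the same division, in a comparison made after the values were seen. It is not separate from the counts above, since its windows reuse the same gene ends and starts. Tail-to-tail windows have a gene end at both sides, head-to-head windows a start at both sides, and tandem windows an end and a start. Among adjacent members within a group, 44 pairs had both strands known. A window was taken from 5 kb before to 5 kb after the junction between the facing gene ends. Some windows hold a whole gene with both its start and its end. The window of ZNF565 with ZNF146, which overlap, holds all of ZNF146. Those of ZNF576, which is 4.77 kb long, hold all of ZNF576. In 9 tail-to-tail pairs, whose 3' ends face each other, the median covered share of the window was 86.0%. In 27 tandem pairs it was 16.5%, and in 8 head-to-head pairs, whose starts face each other, it was 0%. Of the tail-to-tail windows 8 lay between 70.6% and 100%, and the exception, ZNF576 with ZNF428, was at 0%. Of the head-to-head windows 7 were at 0%, and the exception, ZNF428 with ZNF283, was at 1.75% over a gap of 208 kb. Tandem windows ran from 0% to 49.6%, below those 8 tail-to-tail windows but not below the exception.

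Examples show how the same gene changed from covered by a region to not covered along its length. ZNF382, known as a KRAB repressor, and ZNF461 lie tail to tail, and 1 region at 36621190 to 36644923 filled their junction window to 100%. Their starts face ZNF529 and ZNF567 in head-to-head pairs, and both of those windows had 0%. ZNF345 and ZNF829 overlap at their tails and shared the region at 36871130 to 36899501, which filled their window to 100%. The windows at their starts, shared with ZNF790 and ZNF568, had 0%. ZNF569 and ZNF570, which overlap head to head, had 0% at their junction, whereas 44.2% and 54.2% of their bodies were covered.

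**Figure D3:**
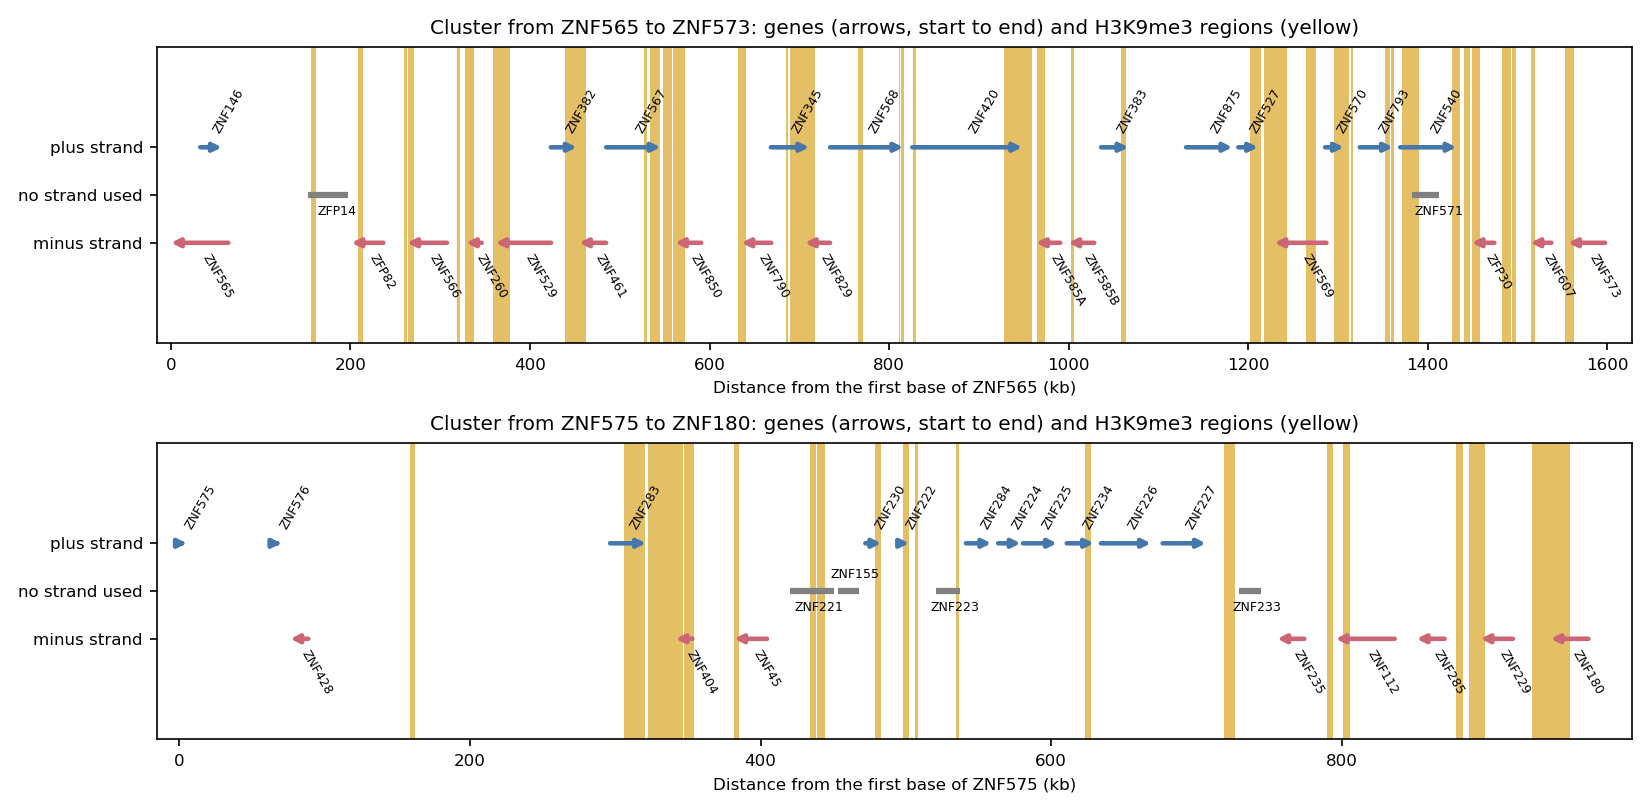
Map of the 2 large clusters, with distance (kb) from the first base of ZNF565 and of ZNF575; arrows run from gene start to gene end by strand, gray bars are genes without a start site in the table, and yellow bands are the H3K9me3 regions. Bands sit at arrow tips that point to each other (ZNF382 with ZNF461, ZNF345 with ZNF829, ZNF283 with ZNF404) and are absent where arrow tails meet (ZNF529 with ZNF382).

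On 19p, 12 tail-to-tail pairs had a median covered share of 19.7% and all 12 windows touched a region. On distal 19q, 16 such pairs had a median of 12.3%, with 10 windows touched. Head-to-head pairs had a median of 0% in both. The windows differ in length, with medians for tail-to-tail pairs of 22.7 kb on proximal 19q, 77.0 kb on 19p and 25.9 kb on distal 19q. In covered length the medians were 16.0, 13.3 and 3.12 kb, so proximal 19q and 19p were closer by this measure than by share.

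**Figure D4:**
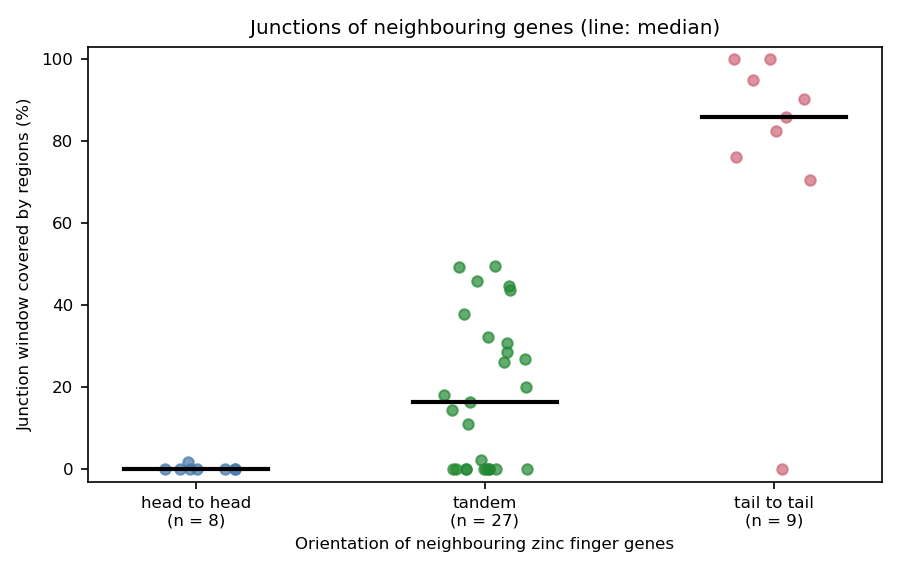
Covered share (%) of the window around the junction of neighbouring zinc finger genes of proximal 19q, by orientation; points are the 8 head-to-head, 27 tandem and 9 tail-to-tail pairs and lines are medians (0%, 16.5% and 86.0%). Of the tail-to-tail points 8 lie above every tandem point and 1 lies at 0%.

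The start windows of the members were rich in CG dinucleotides, as are those of many genes. The 59 matched members had 88 windows of 300 bases, with a median of 20 CG and quartiles of 17 and 26.25, against a median of 21 and quartiles of 7 and 31 over 22175 windows of all protein-coding genes. The covered window, that of ZNF404, had 2 CG and 39% GC, below the 87 other windows, which ran from 4 to 49 CG and from 43.7 to 78.7% GC. Over all protein-coding genes, the 27 covered windows had a median of 3 CG and the 22148 others a median of 21. Of the 6 covered windows of zinc finger genes in the genome, those of ZNF404, ZNF117, ZNF479 and ZNF679 had at most 2 CG, while ZNF595 had 12 and ZSCAN18 had 36. Windows of members without a region in the gene body had a median of 22 CG, against 20 for members with one.

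Short motifs were searched in the same 300 bases on both strands, allowing overlap with other motifs. TATAAA, the TATA box core, was in 2 of 88 member windows (2.3%) and in 9.47% of all windows. CCAAT was in 24 (27.3%) and in 34.7% of all. GGGCGG, the core of the Sp1 box, was in 42 (47.7%) and in 56.3% of all. A match is only a match of letters in this window.

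The regions themselves were long for this list. The 52 regions that touched a member had a median length of 7013 bp, against 3533 bp over the 10519 unsplit regions of the list. Of the 52, 18 (34.6%) were at least 10 kb long, against 5.36% of the list. Over the 432 regions of chromosome 19 the median was 4589 bp, and 21.8% were at least 10 kb long. Lengths are of whole regions, also where only a part lay in a member, and a longer region is likelier to touch a gene. The authors' score has no stated unit. Its median per base pair was 8.70 in the 52 regions, with a range of 3.75 to 14.6, 8.17 over chromosome 19 and 6.97 over the list. The 88 regions in 19p zinc finger genes had a median length of 6378 bp and the 70 in distal 19q zinc finger genes one of 5882 bp, with median scores per base pair of 9.13 and 9.10.

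The longest region in a member spanned 37110530 to 37140789 (30.3 kb) at the end of ZNF420, a KRAB protein known to restrain p53. Next came the regions shared by ZNF345 and ZNF829 (28.4 kb), touching ZNF180 (26.4 kb), touching ZNF404 (24.6 kb) and shared by ZNF382 and ZNF461 (23.7 kb). Of the region touching ZNF404, 5318 bp lay in that gene. Their scores per base pair were 10.5, 10.9, 11.7, 11.5 and 11.6, all above the median of the 52. By length these 5 ranked between 93 and 139 in the whole list. In all, 3 regions touched 2 members each, the third being shared by ZNF540 and ZNF571 (19.6 kb).

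The members occupied 11.7% of the stretch and held 35.7% of its covered bases. Their bodies were covered over 16.7% and the rest of the stretch over 3.98%. Regions between the lower border and ZNF536, on the centromere side, made up 395 kb or 36.5% of the covered bases. From the start of ZNF536 on, the members held 56.2% of the covered bases in 14.7% of the sequence, and the rest was covered over 2.24%. Between the members of the ZNF565 cluster 20.3% of the bases were covered, against 24.1% within them, and in the ZNF575 cluster these values were 12.1% and 16.9%. Of the 122 regions in the stretch, 70 touched no member. Of these 70, 14 lay between the members of a group and 24 on the centromere side of ZNF536. Counted by gene, 63 of the 70 lay in no protein-coding gene.

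Of 22 listed genes with roles in H3K9 methylation, its removal or heterochromatin, ERH among them, 6 overlapped a region, or 27.3%. The share of all protein-coding genes was 10.5%. Among all protein-coding genes, those with a region had a median length of 126881 bp and those without one of 20506.5 bp. The part of gene length in the share of the listed genes was not tested. ZNF274, a KRAB zinc finger protein known to bring SETDB1 to the 3' ends of zinc finger genes and itself on distal 19q, was covered over 58.9%. The other 5 were covered over little of their length: ATF7IP (5.75%), SETDB2 (5.34%), SETDB1 (4.85%), KDM4B (1.66%) and KDM4C (0.62%). TRIM28, CBX1, CBX3, CBX5 and ERH had no region. Nor had SUV39H1, SUV39H2, EHMT1, EHMT2, ATRX, DAXX, KDM4A, MORC2, MPHOSPH8, PPHLN1 and TASOR. Near-identical zinc finger genes can share reads, and how such reads were handled is not given in the sources used here, so the assignment of a region to 1 gene of a cluster is uncertain.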

How the data were processed

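CUT&RUN for H3K9me3 in ERH knockdown BJ fibroblasts is represented by 1 merged list, and other groups were not analysed here. Per the submitters' processing notes the build is hg38 and the tools are Bowtie2 2.3.4.1, SAMtools 1.16.1, R 3.6.3, deepTools 3.5.0, bedtools 2.27.1 and SEACR 1.3. Their roles and settings, any control library and the merging of replicates are not given in the sources used here. The authors deposited a whole-number score per region without a unit. It was used only to describe and rank regions within the list. A piece number, above 1 in 17 rows of which 0 are on chromosome 19, was used only to leave out split pieces. Depth is unknown.

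Gene positions, start sites and strand came from RefSeq tables of GRCh38.p14. Overlap meant at least 1 bp. Covered bases were summed in Python 3.11.15 (numpy 2.4.6, pandas 2.3.3, scipy 1.17.1, matplotlib 3.10.9), and of 500 simulated sets used to check this sum against single bases 0 mismatched. No test was run, since the list has no replicates. Members and lists were chosen with earlier results of these data known. Genes named are the 3 most covered of at least 5 kb in clusters of 5 or more, all in smaller groups, those without a region, those beside the 50% line and those in the 5 longest regions. Others named as examples were chosen after their values were seen. Alternatives changed the score threshold, score per base pair, region length, joining, overlap, gene length and gene extent.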

Additional observations from a re-analysis of the deposited data

How the results depend on the processing

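Under the alternatives, 38 values were computed for 8 results, and 36 stayed within the interval of the main value or, for counts, within 1.5 times of it. Keeping regions of at least 2 kb, joining within 5 kb and dropping regions above 20 score units per base pair returned the main value each time. No region in a member scored above 14.6 per base pair, so that last limit could not act on members. These unchanged values therefore say little about robustness. The share of members with a region was 60.6% when only regions scoring no lower than the median were kept, and 63.6% to 68.3% under the other alternatives. The median covered share ran from 14.9% to 16.7%. The share of members whose last base lay in a region was 39.0% under that same score limit. The number of groups was 9 with a gap of 250 kb and 7 with 1 Mb. Of the 38 values, 2 moved. The share of other genes of the stretch with a region fell from 2.32% to 0.66% when at least 10% of the gene body had to be covered, a stricter criterion by construction. The share of 19p zinc finger genes went from 90.5% to 82.1% under the score limit, which keeps fewer regions by construction. The planned comparison with protein features was not run, since protein sequences were not used here, and the 10% criterion has no meaning for the median covered share. No replicate could be left out. No paired analysis was possible because the file merges the 3 samples of a single group. Depth limits cannot be stated, since the list has no counts.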

Other observations

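Zinc finger loci of the same stretch that do not encode a protein were also looked at. Of 3 pseudogenes, 3 overlapped a region. ZNF285BP, next to ZNF180, was covered over 100%, ZNF781 over 48.3% and ZNF807P over 8.80%. Of 12 long non-coding RNA genes named after a zinc finger gene, 4 overlapped one: ZNF571-AS1 (51.1% covered), ZNF790-AS1 (31.6%), ZNF793-AS1 (18.995%) and ZNF45-AS1 (11.7%). The transcripts ZNF567-DT, ZNF230-DT and ZNF222-DT, which are named as divergent from the start of their gene, had 0% covered. ZNF536-AS1, ZNF30-AS1, ZNF566-AS1, ZNF529-AS1 and ZNF225-AS1 also had 0%. Shares over all pseudogenes and all long non-coding RNA genes were not computed, so these counts have no background beside them. These loci overlap or adjoin members, so their values are not independent of those above.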
